A study of Mus musculus with 4 samples.

Results

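The CXC chemokine ligands are small secreted proteins, named for a cysteine-X-cysteine motif, that direct the movement of white blood cells through G protein-coupled receptors. Here 10 of their genes were followed, Cxcl1, Cxcl2, Cxcl3, Cxcl5, Cxcl9, Cxcl10, Cxcl11, Cxcl12, Cxcl16 and Pf4, each taken as the gene row that bears its symbol, out of 56004 gene rows in all. Every one of the 10 had exactly 1 row. The libraries came from mouse cells that the submitters labelled Kupffer cells, which are macrophages that live in the liver, and their RNA was sequenced after 48 h with exosomes, small vesicles shed by other cells. The exosomes came from MC38 colon cancer cells, either MC38-PRL-3 (2 libraries, called PRL-3) or MC38-VT (2 libraries, called VT). PRL-3 is a tyrosine phosphatase, the labels do not spell out VT, and 10 ug of exosomes is written beside the VT exosomes alone. No mouse strain, age or genotype and no number of animals is given. The titles call the replicates of a group biological, but do not say whether animals, isolations or cultures separate them. The p-values therefore measure the spread between these samples, and whether that includes differences between animals is not known.

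The unit is not named in the sources used here, but the values behave as FPKM (fragments scaled to transcript length and to the size of the library). Depth implied by the lowest values was 16.9 to 18.3 in units of 1e6 fragments per library. PRL-3 replicate 1 stood furthest from the rest, with an SD of the log2 ratio of 0.402 to 0.412 in the 3 pairs that held it and 0.313 to 0.366 in the other 3. Of 8 general macrophage genes, Mertk was at 0.02 FPKM or less. The other 7 were tested, at 40.7 FPKM or more in each library, and 0 were called. Lyz2 was at 5916 and 5988 FPKM after PRL-3 exosomes, against 6822 and 6831 after VT exosomes. Cd14 was at 884 and 1048 after PRL-3 exosomes, against 1152 and 1206 after VT exosomes. Both were lower without overlap, 2 of the 7 beside 18.0% of all tested genes. Fcgr1 was higher without overlap, 1 of the 7 beside 24.3%. It was at 114.87 and 80.42 after PRL-3 exosomes, against 69.47 and 76.65 after VT exosomes (Fcgr1 and Mertk were named after their values were seen). Cd68 overlapped at 538 to 625. In contrast, 5 of 12 Kupffer cell markers, Clec4f, Vsig4, Timd4, Marco and Cd163, were listed at 0 in every library and C1qa, C1qb and C1qc reached at most 0.38 (all named after their values were seen). Of the 3 Kupffer markers tested, Id3 (14.7 to 17.1) and Nr1h3 (4.68 to 6.85) overlapped between the groups. Cd5l was at 2.36 and 1.05 after PRL-3 exosomes, against 3.52 and 3.51 after VT exosomes (limma adjusted p = 0.49). It was lower without overlap, 1 of the 3 beside 18.0% of all tested genes. Apart from Mertk, the macrophage label was therefore borne out and a resident Kupffer identity was not. Of 9 neutrophil markers 5 were at 0 in every library and 1, S100a8, was above 1 FPKM (216 to 309), and the summed hepatocyte, epithelial, T and NK cell, and B cell lists each stayed at 0.15 or less. The endothelial list summed to 7.49 to 9.18 FPKM after PRL-3 exosomes and 6.64 to 7.54 after VT exosomes, nearly all from Eng, which overlapped, and Oit3, at 4.58 and 3.44 after PRL-3 exosomes, against 2.82 and 2.17 after VT exosomes (limma adjusted p = 0.51).

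The family divides by receptor. Cxcl1, Cxcl2, Cxcl3 and Cxcl5 attract neutrophils through CXCR2 and are classic targets of NF-kB in macrophages given a microbial stimulus. Cxcl9, Cxcl10 and Cxcl11 are induced by interferons and attract activated T cells through CXCR3. Cxcl12 acts through CXCR4, holds blood-forming cells in the bone marrow and is made mainly by stromal cells. Cxcl16 is made as a membrane protein that is cut loose by ADAM proteases and binds CXCR6 on T and natural killer T cells, and Pf4, platelet factor 4 or CXCL4, is stored in platelet granules.

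A single gene, Cxcl2, carried nearly all of the CXC ligand transcript. Its level was 1185 and 1243 FPKM in PRL-3 replicates 1 and 2, against 1369 and 1088 FPKM in VT replicates 1 and 2. Both PRL-3 values fell between the VT values. Of the summed FPKM of the 10 ligands, Cxcl2 made up 95.5% and 95.2% in the PRL-3 libraries, against 96.7% and 95.9% in the VT libraries. Cxcl16 supplied another 4.13% and 4.59% in the PRL-3 libraries, against 3.10% and 3.77% in the VT libraries. All other members together gave 0.187% to 0.380% in any library. Among all gene rows of a library, Cxcl2 ranked between 58 and 88 from the top and Cxcl16 between 1825 and 2550, and among 41 chemokine ligand genes Cxcl2 stood at rank 3 in each library.

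**Figure D1:**
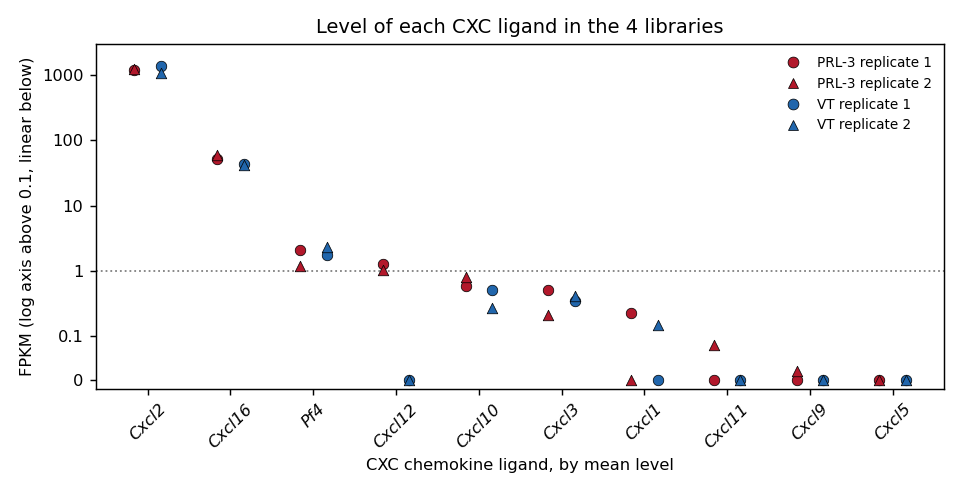
FPKM of the 10 CXC ligands, ordered by mean level, on an axis that is logarithmic above 0.1 and linear below it. Each point is 1 library, PRL-3 (red) left of VT (blue), circles for replicate 1 and triangles for replicate 2, and the dotted line marks an FPKM of 1. Cxcl2 lies at 1088 FPKM or more in each library, Cxcl16 between 42.8 and 60.0, and 6 members lie under 1.

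The order of the levels was the same at its top in each library, with Cxcl2 above Cxcl16 and Cxcl16 above Pf4. These steps were larger than the spread between libraries, since the lowest Cxcl2 value (1088 FPKM) stood far above the highest of Cxcl16 (59.95) and the lowest Cxcl16 value (42.79) above the highest of Pf4 (2.37). Below Pf4 the ranges ran into each other. Pf4 reached down to 1.21 FPKM where Cxcl12 reached up to 1.30, and Cxcl10 (0.27 to 0.80) and Cxcl3 (0.21 to 0.52) crossed as well.

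The ligands of CXCR2 differed most from one another in level, although their genes lie in 1 cluster. Cxcl2 (mouse build mm10, chromosome 5, 90903871 to 90905938, plus strand) begins 12.6 kb beyond Cxcl1, and Cxcl3 begins 118 kb before it. Cxcl1 (90891241 to 90893115) had 0.23 and 0 FPKM with PRL-3 exosomes, against 0 and 0.15 with VT exosomes. Cxcl3 (90786103 to 90789600) had 0.52 and 0.21 FPKM with PRL-3 exosomes, against 0.35 and 0.41 with VT exosomes. Cxcl5 (90759360 to 90761624) was listed at 0 in all 4. Cxcl2 thus had 2280 to 5921 times the FPKM of Cxcl3 in the same library. From the fitted depth and the shortest and longest annotated transcript, the Cxcl1 values above 0 would be about 2 to 6 fragments and the Cxcl3 values about 3 to 29, so neither order between the groups can be read. The annotated transcripts of Cxcl2 and Cxcl3 have 126 distinct words of 50 bases in common. Words were taken at every base and can overlap, so a longer shared run can hold many of them. Fragments of these genes could thus have been exchanged in the counting. Cxcl1 shared no such word with either.

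**Figure D2:**
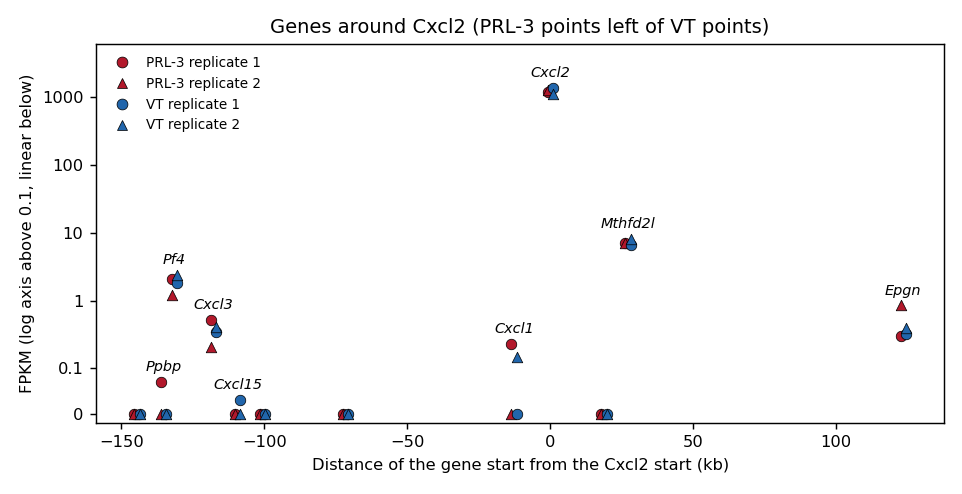
FPKM of the annotated genes that start within 150 kb of Cxcl2 and have a row in the files (12 of 14), against the distance of their start from that of Cxcl2 in kb, with points and axis as in the plot of the 10 ligands. Apart from Cxcl2, just Pf4 and Mthfd2l, a mitochondrial folate enzyme, reach an FPKM of 1, and the highest value after Cxcl2 is 8.04.

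The stretches just before the starts of Cxcl1, Cxcl2 and Cxcl3 are shown because these genes have like sequence there and unlike levels. They are RefSeq promoter sequences of GRCm38.p6, chromosome 5, plus strand, bases 120 to 31 before the RefSeq start (Cxcl1 chr5:90891125-90891214, Cxcl2 chr5:90903779-90903868, Cxcl3 chr5:90785981-90786070), and capitals mark a match to GGGAATTTC, the core of an NF-kB site:
Cxcl1: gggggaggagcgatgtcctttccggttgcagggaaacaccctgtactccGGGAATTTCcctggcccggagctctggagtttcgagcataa
Cxcl2: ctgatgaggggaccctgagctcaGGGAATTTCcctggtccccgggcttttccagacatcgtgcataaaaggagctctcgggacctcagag
Cxcl3: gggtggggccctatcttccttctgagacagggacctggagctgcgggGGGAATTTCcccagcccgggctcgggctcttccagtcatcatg

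The match began 71 bases before the RefSeq start in Cxcl1, 97 in Cxcl2 and 73 in Cxcl3. These distances depend on the annotation, since the Cxcl2 start at 90903871 given above lies upstream of its RefSeq start. A promoter sequence was found for 7 of the 10 members. Searched on both strands over the 250 bases before the start, these letters occurred in 4 of the 7 (Cxcl9 had them on the opposite strand) and in 0.234% of the 32851 promoters of the table. They were not in the windows of Cxcl10, Cxcl12 and Pf4. The same letters thus stood before Cxcl2, at 1088 FPKM or more, and before 3 genes under 1 FPKM. A match is a matter of letters, and binding was not measured here.

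The design asks whether any of these genes differed between cells given PRL-3 exosomes and cells given VT exosomes. An FPKM of 1 in at least 2 libraries was required for testing, which 4 of the 10 members met, Cxcl2, Cxcl12, Cxcl16 and Pf4. None of the 4 was called by limma at an adjusted p under 0.05, and over all 12193 genes tested 0.0492% were called. At an unadjusted p under 0.05 there were 2 members, Cxcl12 and Cxcl16, against 9.51% of all genes. For these 2 of the 4 tested members the groups were apart with PRL-3 higher, as they were for 24.3% of all tested genes, and 0 of the 4 were apart with PRL-3 lower, against 18.0% of all. The median log2 difference was 0.17 over the 4 members and 0.02 over all tested genes. Cxcl12 passed the filter only through the group in which it is high, so these counts say nothing of the family as a whole.

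For Cxcl2, the fitted difference was close to 0. The group means were 1214 ± 41.0 FPKM with PRL-3 exosomes and 1229 ± 198 FPKM with VT exosomes (SD, n = 2 each). The difference in log2(FPKM + 1), PRL-3 less VT, came to -0.01 (standard error 0.14, 95% interval -0.36 to 0.35, limma adjusted p = 0.99). Changes inside that interval were not detectable here. The interval is not adjusted for the number of genes tested, so larger changes could also have gone uncalled. The sign of the difference turned with the VT library left out, at 0.16 without VT replicate 1 and -0.17 without VT replicate 2.

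Cxcl16 (chromosome 11, 70453983 to 70459984, minus strand) had the clearest order among the abundant members. It was at 51.3 and 60.0 FPKM in PRL-3 replicates 1 and 2, against 44.0 and 42.8 FPKM in VT replicates 1 and 2. The groups did not overlap, and the PRL-3 mean was 1.28 times the VT mean. The log2 difference of 0.35 (standard error 0.11, unadjusted 95% interval 0.07 to 0.63) was not called after adjustment over the whole table (limma adjusted p = 0.49). It was positive in all 16 alternatives, at 0.24 to 0.46. Since both PRL-3 values lie above both VT values, only the scalings among these could have turned the sign. Set against Cxcl2 in the same library, a ratio that no factor applied to a whole library can alter, Cxcl16 was 4.32% and 4.82% of the Cxcl2 level in the PRL-3 libraries, against 3.21% and 3.93% in the VT libraries. That is again without overlap, at an exact two-sided permutation p of 0.33, the smallest that 2 against 2 libraries allow. The row is one of an assembled transcript, whose length is not known, and 552 exon bases of the gene are shared with Zmynd15 on the opposite strand. Zmynd15 had 3.8 and 6.03 FPKM with PRL-3 exosomes, against 3.79 and 3.99 with VT exosomes, and its part in the Cxcl16 values was not tested.

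**Figure D3:**
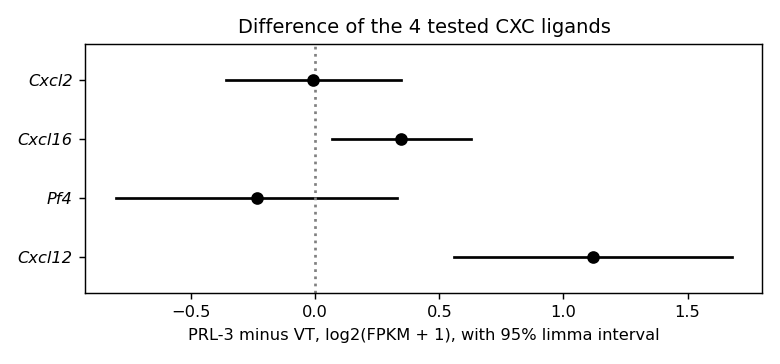
Log2 difference (PRL-3 minus VT, log2(FPKM + 1)) of the 4 tested CXC ligands, with the point as the limma estimate and the line as its 95% interval, unadjusted. The intervals of Cxcl2 and Pf4 hold 0, those of Cxcl16 and Cxcl12 do not, and none of the 4 genes passed after adjustment over all genes. Cxcl12 passed the filter only through the group in which it is high, so its direction was fixed by the filter.

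Cxcl12 (chromosome 6, 117168535 to 117181367, plus strand) was detected in one group alone, at 1.30 FPKM in PRL-3 replicate 1 and 1.05 FPKM in PRL-3 replicate 2, while each VT library lists it at 0. The PRL-3 values stand for about 32 to 119 fragments a library, depending on the transcript. The fitted log2 difference was 1.12 (standard error 0.23, limma adjusted p = 0.45), a size that hangs on the pseudocount and reached 3.67 with a pseudocount of 0.1. Markers of matrix-producing cells were read beside it. Of 12 stellate cell and fibroblast markers, 2 were tested, Dcn and Sparc, and 0 were called. Without regard to the filter, 7 of the 12 were higher in both PRL-3 libraries and 0 lower, and 6 of these 7 lay under the filter. Of the 2 tested markers, 1 was apart with PRL-3 higher, beside 24.3% of all tested genes, and 0 with PRL-3 lower, beside 18.0%. No such share was taken over genes under the filter, so the 7 of 12 has none to stand beside it. Among the 7 was Sparc, a matrix glycoprotein, at 2.07 and 1.97 FPKM with PRL-3 exosomes and 0 in each VT library (limma adjusted p = 0.20). Like Cxcl12, Sparc passed the filter only through the group in which it is high, so its direction was fixed by the filter. Lum, the proteoglycan lumican, was at 0.76 and 1.12 with PRL-3 exosomes, against 0.74 and 0.53 with VT exosomes. Col1a2, a chain of type I collagen, was at 0.81 and 0.47 with PRL-3 exosomes and likewise 0 in each VT library. The other 5, with Dcn the most abundant of them, overlapped or were at 0 throughout. The summed level of the 12 was 9.57 to 12.2 FPKM with PRL-3 exosomes and 5.35 to 6.32 with VT exosomes, much of it from the proteoglycan gene Dcn (4.32 to 6.63). Lrat, which marks resting stellate cells, was at 0 in each library (Col1a2, Col3a1 and Lrat were named after their values were seen). The part of such cells in the Cxcl12 values was not tested, and in bulk RNA more cells of a type and more RNA per cell cannot be told apart.

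**Figure D4:**
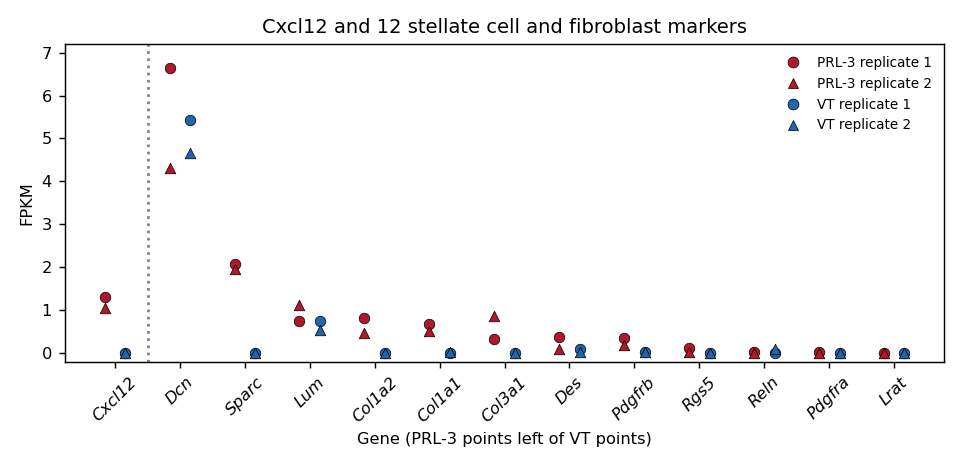
FPKM of Cxcl12 (left of the dotted line) and of 12 stellate cell and fibroblast markers ordered by mean, with PRL-3 points (red) left of VT points (blue), circles for replicate 1 and triangles for replicate 2. Cxcl12, Sparc, Col1a2 and Col3a1 are above 0 in both PRL-3 libraries and at 0 in both VT libraries, whereas Dcn overlaps between the groups.

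Pf4 (chromosome 5, 90772435 to 90773383, plus strand) had low values that overlapped, 2.07 and 1.21 FPKM in PRL-3 replicates 1 and 2, against 1.79 and 2.37 FPKM in VT replicates 1 and 2. The log2 difference was -0.24 (standard error 0.23, interval -0.80 to 0.33, limma adjusted p = 0.78). Its transcripts of 360 to 588 bases are short, and the values would be about 3 to 16 fragments a library. Without PRL-3 replicate 2 the difference was 0.0017. Of 10 platelet and megakaryocyte markers none reached the filter, with a summed level of 1.18 to 1.70 FPKM in PRL-3 and 1.45 to 1.96 in VT libraries, and Ppbp, the platelet chemokine beside Pf4, was at 0.07 or less.

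The interferon-induced ligands of CXCR3 were low throughout. Cxcl10 (chromosome 5, 92346638 to 92348889, minus strand) gave 0.60 and 0.80 FPKM with PRL-3 exosomes, against 0.51 and 0.27 with VT exosomes. That was without overlap but under the level needed for a test, and at about 1 to 29 fragments a library. No share of genes under the filter was taken to set beside that order. The Cxcl10 exons share 133 bases with Art3 on the opposite strand, which was at 0.12 FPKM or less in each library. Cxcl9 (92321347 to 92328079) was at 0.02 FPKM in PRL-3 replicate 2 and 0 in the other libraries. Cxcl11 (92359544 to 92365485), which the annotation marks as a polymorphic pseudogene, was at 0.08 in PRL-3 replicate 2 and 0 elsewhere. Its exons share 1582 bases with the processed pseudogene Gm2673 on the opposite strand, so fragments of these genes cannot be told apart without strand. Other interferon-induced genes were taken from a list of 12, of which 4 were tested and 0 were called (median log2 difference -0.25). Oasl1, an antiviral protein, gave 31.8 and 26.6 FPKM after PRL-3 exosomes, against 36.4 and 30.4 after VT exosomes, and Isg15, a ubiquitin-like modifier, 26.6 and 14.8, against 30.8 and 21.1. Both genes overlapped between the groups. Irgm1, an immunity-related GTPase, was the 1 gene of the 4 without overlap (18.0% of all tested genes were apart with PRL-3 lower), at 12.87 and 8.92 FPKM after PRL-3 exosomes, against 13.8 and 13.47 after VT exosomes (limma adjusted p = 0.61).

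Summed over the 10 members, the ligand level was 1274 ± 46.2 FPKM in PRL-3 libraries and 1275 ± 199 FPKM in VT libraries (SD, n = 2 each, exact two-sided permutation p = 1). With Cxcl2 left out it was 56.0 and 63.3 in PRL-3, against 46.6 and 46.0 in VT, nearly all of it Cxcl16. That difference had an exact permutation p of 0.33, the smallest possible here.

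Of 5 further CXC ligands, Cxcl14, which is found in epithelia and macrophages, was the only one tested, at 7.19 and 12.98 FPKM in PRL-3, against 9.15 and 10.95 in VT (limma adjusted p = 0.97). The receptors of the 2 abundant ligands were at or near 0. Of 8 CXC and atypical receptors, Cxcr1, Ackr1 and Ackr3 were listed at 0 in all libraries, Cxcr2, the receptor of Cxcl2, was at 0.07 to 0.18 FPKM, and Cxcr6, the receptor of Cxcl16, at 0.20 to 0.33 (these 5 were named after their values were seen). Cxcr4, to which Cxcl12 binds, had 0.74 and 0.65 FPKM after PRL-3 exosomes, against 0.24 and 0.40 in VT, without overlap but under the filter. Cxcr5 (2.57 to 3.65) and Cxcr3 (1.28 to 2.40) were tested, with group ranges that overlapped and no call.

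The enzymes that free Cxcl16 from the membrane were well expressed. Adam17 was at 89.4 and 91.8 FPKM in PRL-3 replicates 1 and 2, against 80.2 and 79.5 in VT replicates 1 and 2, without overlap (log2 difference 0.18, limma adjusted p = 0.61). Adam10 was at 42.3 and 43.5 in PRL-3, against 42.8 and 44.0 in VT, with overlap (adjusted p = 0.97). Of 12 processing and carrier genes 7 were tested, 0 were called, and 2 of the 7 had both PRL-3 libraries above, beside 24.3% of all tested genes, namely Adam17 and its partner Rhbdf2 (Adam10 and Rhbdf2 were named after their values were seen). Srgn, the granule proteoglycan serglycin that can carry Pf4, was the most abundant at 584 to 701 FPKM, and Sdc4, a membrane heparan sulfate proteoglycan, was at 83.0 to 97.5.

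All 17 listed transcriptional regulators of CXC ligand genes were tested, with 0 called and a median log2 difference of 0.07. The groups were apart in 8 of them, with PRL-3 higher in 6 and lower in 2, Stat3 and Irf9 (named after their values were seen), beside 24.3% and 18.0% of all tested genes. The 3 most abundant were Nfkbia, the NF-kB inhibitor, at 158 and 229 FPKM in PRL-3, against 211 and 204 in VT, Cebpb at 129 and 107, against 106 and 105 in VT, and Nfkb1, the p105 and p50 subunit, at 103 and 115, against 101 and 93.2 in VT. Nfkbia overlapped, Cebpb and Nfkb1 did not, and limma adjusted p was 0.68 to 0.85. The 3 regulators with an unadjusted p under 0.05 were Nfkb2, Relb and Nfkbiz (named after their values were seen), 3 of 17 beside 9.51% of all tested genes. Nfkbiz, an NF-kB cofactor of secondary response genes, was at 89.8 and 99.5 FPKM with PRL-3 exosomes, against 79.1 and 75.3 with VT exosomes (adjusted p = 0.51).

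Transcripts of several CXC ligands are short-lived and are bound by proteins that hasten or delay their decay. All 8 listed genes were tested and 0 were called (median log2 difference -0.04), with both PRL-3 libraries higher for 1 of the 8 and lower for 3, beside 24.3% and 18.0% of all tested genes. Zfp36, tristetraprolin, which directs decay of AU-rich mRNAs, was at 86.9 and 102 FPKM in PRL-3, against 99.6 and 90.1 in VT, and overlapped. Hnrnpd, the AU-rich element binder AUF1, was the most abundant at 117 and 159, against 170 and 181 in VT, without overlap (log2 difference -0.36, adjusted p = 0.56). Zc3h12a, the nuclease regnase-1, was at 45.8 and 48.3, against 42.0 and 43.9 in VT, also without overlap (adjusted p = 0.72).

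**Figure D5:**
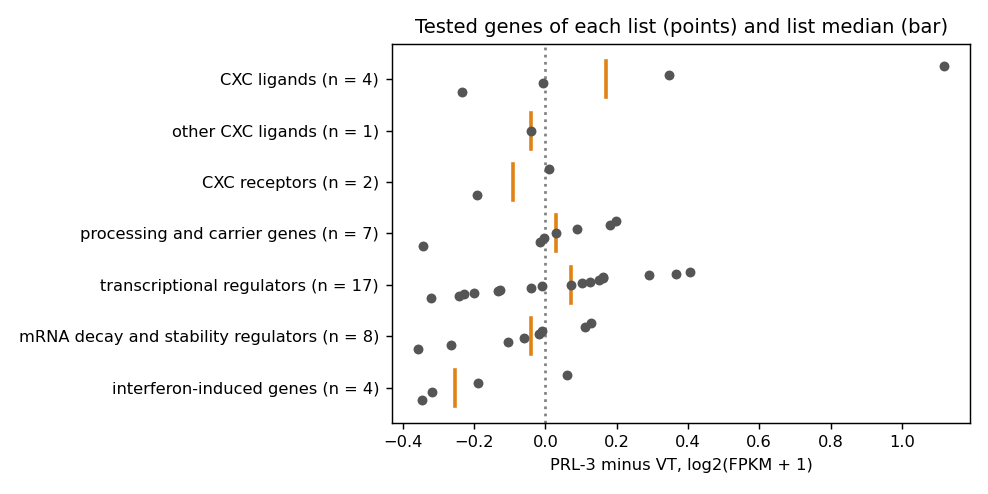
Log2 difference (PRL-3 minus VT, log2(FPKM + 1)) of each tested gene (points) and the median (orange bar) for the CXC ligands and the 6 lists of related genes (markers of cell types are not drawn), with the number of tested genes in brackets. No gene shown was called. Of these 7 lists the medians run from -0.25 for the interferon-induced genes to 0.17 for the CXC ligands. The highest CXC ligand point is Cxcl12, which passed the filter only through the group in which it is high. The median of 0.17 therefore says nothing of the family as a whole.

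Genes with the profile nearest to that of the abundant members were sought by the root mean square distance between centred log2 values over the 4 libraries, among 9133 other tested genes with a mean of at least 5 FPKM. For Cxcl2 these were Rnft1, Tmem18 and Ppfibp1, at distances of 0.0123 to 0.0138, and 70 genes lay within 0.05. For Cxcl16 they were Arf2, Zfp62 and Ing2, at 0.0144 to 0.0242, with 36 genes within 0.05. With 4 libraries such nearness is a description only.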

How the data were processed

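Processed tables of 4 RNA-seq libraries (2 PRL-3, 2 VT) were used. The authors deposited 1 value per gene, read here as FPKM because the values were not whole and their sums differed between libraries (675475 to 725599). Per the labels, mRNA was captured on beads and random-primed. No strand marking is stated. The submitters' processing notes name RSEM, DESeq2 and mm10 without versions or roles. Which aligner and gene models were used is not given in the sources used here. Fragment numbers are approximations: depth and a fragment length of 220 bases were fitted so that low values of single-transcript genes became whole within 0.2 fragments (86.7% to 87.7% did, 40% by chance).

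Genes that reached 1 FPKM in 2 or more libraries were compared as log2(FPKM + 1) with limma 3.58.1 (R 4.3.3; mean-variance trend, robust moderation), with Benjamini-Hochberg adjustment over all 12193 genes and a threshold of 0.05. The code was run on simulated data with known changes larger than the fitted differences of the members. That is a check of the code and no measure of its power in these 4 libraries. Positions and lengths are from GENCODE mouse release M21 (GRCm38, the sequence of mm10), and promoters from RefSeq. The members and lists were chosen with earlier results of these data known. Named are the 10 members, called genes of a list and otherwise up to 3 genes of highest mean per list, and other genes are marked as named after their values were seen. Other pseudocounts, filters, scalings, moderation, a replicate block and leaving out each library were tried.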

Additional observations from a re-analysis of the deposited data

How the results depend on the processing

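No member was called under any of the 16 alternatives. Cxcl16 stayed higher in all 16, but its groups did not overlap, so only the scalings could have turned its sign. Cxcl12 had a limma adjusted p of 0.12 to 1 in the 15 in which it was tested, and its sign was fixed by the values of 0 in both VT libraries. The Cxcl2 difference (-0.01) changed sign to 0.021 with quantile normalization and to 0.015 when rescaled to the same sum (TPM), and ran from -0.17 to 0.16 when each library was left out in turn. The Pf4 difference (-0.24) ran from -0.47 to 0.0017 when each library was left out. The log2 ratio of the summed ligands (-0.0010) changed sign to 0.022 when rescaled to the same sum and to 0.37 without Cxcl2, and ran from -0.15 to 0.17 when each library was left out. Other scalings moved the median of all genes by at most 0.02.

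The number of genes called over the whole table (6) was 1 with a pseudocount of 0.1, 0 with no filter, 1 with a mean FPKM of 5 or more, 10 without the mean-variance trend and 0 without robust moderation. It was 23 without PRL-3 replicate 2 and 0 without any other single library, and a lone library left in a group was then assumed to vary like the others. The cause was not tested. With the replicate block it was 15. Replicate numbers do not pair the libraries by any label, and deviations of libraries with the same number correlated at -0.06. The depth limits Cxcl1, Cxcl3, Cxcl10 and Pf4, which rest on about 1 to 29 fragments where they are above 0.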
